A study of Mus musculus with 45 samples.

Results

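The cytosolic ribosomal protein genes are the genes for the proteins that, with ribosomal RNA, build the ribosome of the cytoplasm. They were chosen by name: a platform symbol of Rpl or Rps followed by a number and at most a letter, plus Rplp0, Rplp1, Rplp2 and Rpsa, without the Rps6k kinases and the pseudogenes. Of 18194 genes with a probe set of their own on the array, 46 met this rule: 20 proteins of the large subunit, 2 of the stalk (Rplp0 and Rplp2), 20 of the small subunit, and 4 paralogs whose names end in l (Rpl3l, Rpl39l, Rps4l and Rps27l). A further 28 symbols of the rule, among them Rpl3, Rpl5, Rpl10 and Rplp1, occur only on probe sets that list other genes too, and are given no value of their own. Rpl10l and Rps27a were not analysed here.

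The study followed mouse heart development on 45 expression arrays in 15 groups of 3. Embryos and hearts were from wild type CD1 mice. The R1 embryonic stem cell (ESC) line, the E7.5 whole embryo and the E8.5 heart tube gave 1 group each. Ventricles gave a left and a right group each at E9.5, at E12.5, at E14.5, at E18.5, on postnatal day 3 (D3) and in the adult, and no group was treated or mutant. Each E7.5 to E18.5 array held a pool of embryos or hearts, and each D3 or adult array held 1 heart, so the spread between replicates has a different source before and after birth. The stem cells are 1 line, the E7.5 group is the whole embryo and not the heart, and D3 and adult hearts alone were frozen and pulverised before extraction. No age in weeks is given for the adults.

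Each ribosome carries 1 large and 1 small subunit, and nearly every ribosomal protein is needed in equal number, so the genes of the set are usually expressed together. Their messenger RNAs mostly begin with a run of pyrimidines, which lets mTOR signalling raise or lower their translation as a group, and dividing and growing cells make them at high rates. The heart grows by cell division before birth and mainly by cell enlargement afterwards. A few paralogs replace a core protein in particular tissues: Rpl3l replaces Rpl3 in heart and skeletal muscle, and Rpl39l is known mainly from male germ cells.

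The values are log2 intensities after RMA, which summarises the probes of each probe set and brings the arrays to nearly the same distribution (array medians of 5.35 to 5.47). A difference of 1 is thus a 2-fold change in the summarised signal relative to the whole array, and less or more total RNA per cell is not seen. These are bulk tissues, so fewer cells of a type and less RNA per cell cannot be told apart. The heart muscle marker list (9 genes) had a median of 5.68 in ESC and 5.61 at E7.5 and was at least 12.575 on each array from E8.5 on, and the pluripotency list (7 genes) was at 11.9 in ESC and 4.28 in adults. On 6 arrays, all numbered 2, a marker list of another tissue lay more than 1.5 above the other replicates: E7.5, E8.5 heart tube, E14.5 left ventricle, E18.5 left ventricle, adult left ventricle and adult right ventricle. A member was called when limma's moderated test, adjusted over all 18194 genes by the Benjamini-Hochberg method, gave a value below 0.05.

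Ribosomal protein signal moved little up to E14.5, was lower at E18.5 and D3, and was lowest in the adult ventricles; with housekeeping scaling, described below for the same comparisons, the decline was smaller and 9 members turned from a negative to a positive adult minus E9.5 difference. Across the 33 members whose mean signal was above 13, the median per array lay between 14.33 and 14.38 on the 3 ESC arrays, at 14.25 ± 0.02 in E14.5 left ventricles, at 13.94 ± 0.01 in D3 left ventricles and at 13.55 ± 0.06 in adult left ventricles (SD, n = 3 each). Right ventricles had 14.26 ± 0.02 at E14.5, 13.97 ± 0.05 at D3 and 13.55 ± 0.08 in adults. The 6 adult arrays, at 13.45 to 13.61, all lay below the 39 other arrays. These bright members varied little between replicates, with a median within-group SD of 0.050, against 0.22 for the other 13 members and 0.16 for all genes. An F-test over the 9 stages called 44 of the 46 members, where 90.3% of all genes were called, so a change at some stage does not set the members apart. The 2 not called were Rpl39 and Rps16.

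**Figure D1:**
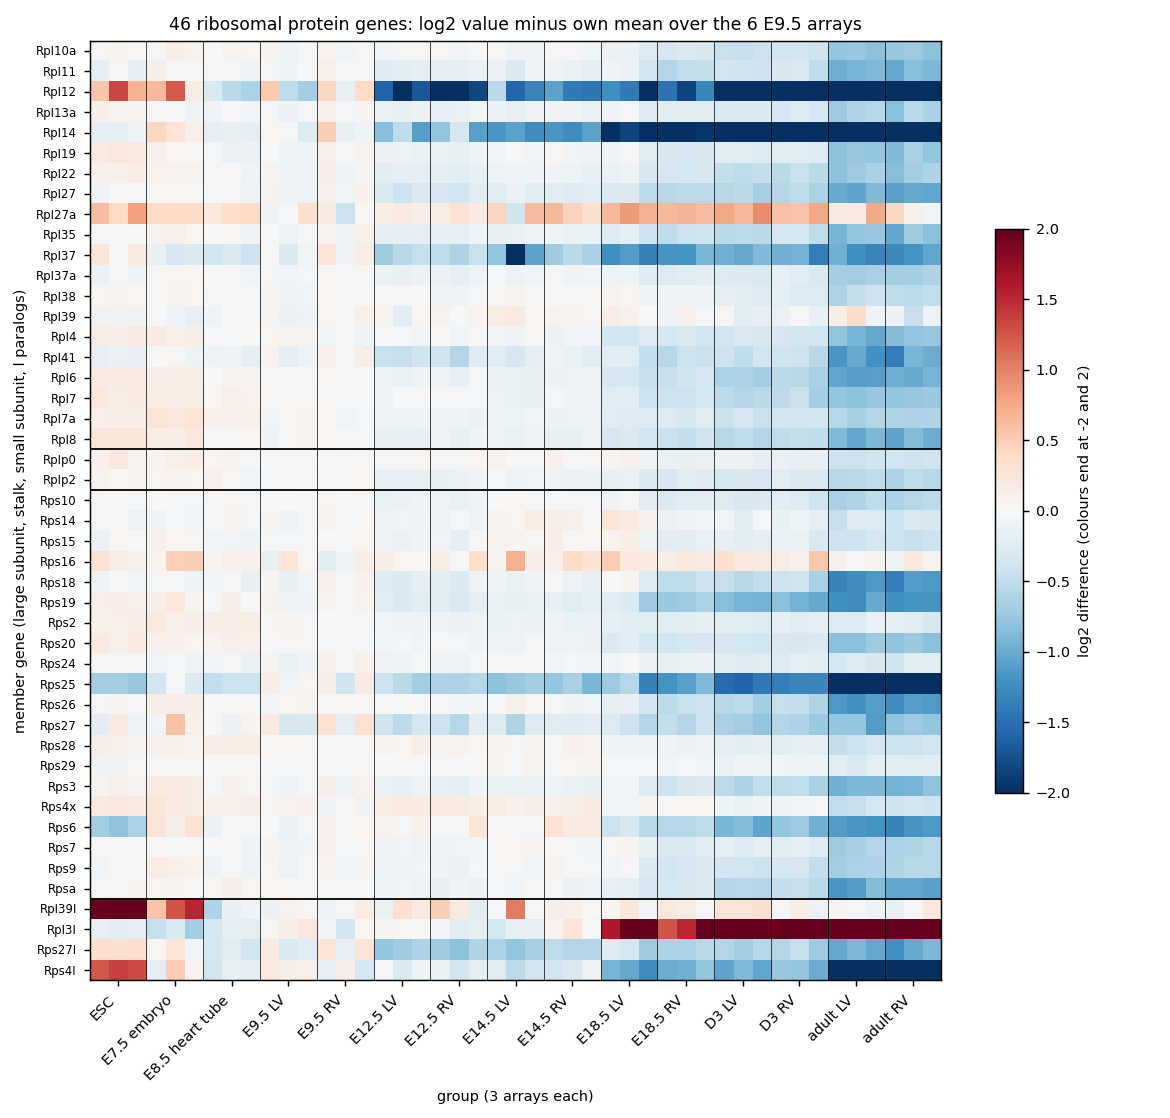
Each row is a ribosomal protein gene and each column an array, in 15 groups of 3 from ESC to adult; colour gives the log2 value minus that gene's mean over the 6 E9.5 arrays, with colours ending at -2 and 2. Most rows turn blue from E18.5 and deepest in the adult ventricles; Rpl3l turns red from E18.5, and Rpl39l is red in ESC.

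Comparing adult with E9.5 ventricles, 41 members fell, 2 rose (Rpl3l and Rpl27a) and 3 were not called (Rpl39, Rpl39l and Rps16). Over all genes tested, 32.9% fell and 41.6% rose in this comparison. Adult arrays held 1 frozen and pulverised heart each and E9.5 arrays held pools, so handling and age cannot be told apart in it. The median difference was -0.775 over the members and 0.13 over all genes. All 33 bright members fell, with differences of -1.23 to -0.23, and their median of -0.72 corresponds to 0.61 times the E9.5 signal. When each array was shifted so that 16 housekeeping genes kept the same mean, the all-gene median shifted by 0.43, the members' median became -0.34, 32 members fell and 8 rose, and the share of all calls that were rises became 74.6%, against 55.8% without it. Among the 16, Pigq stood in for the listed Gpi1, to which it was matched through a synonym. Under that scaling 13 members had a positive difference, 9 of which had a negative one without it: Rpl39, Rplp0, Rps2, Rps4x, Rps14, Rps15, Rps24, Rps28 and Rps29. The 8 rises include Rps16, Rpl39l and Rpl39, whose differences without the scaling were 0.056, 0.003 and -0.042. Rps16 and Rpl39l were near background at both stages, so their rises reflect the shift of the arrays. Over the same span all 7 leukocyte markers and all 7 fibroblast markers rose, and 4 of 6 red cell markers fell; their part in the members' decline was not tested.

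Members fell before birth, around birth and after it. From E14.5 to E18.5, 24 members fell and 2 rose, against 18.7% and 11.8% of all genes, with a median member difference of -0.17; housekeeping scaling left 15 falls and moved the share of all calls that were rises to 50.3%, against 38.7%. In that step all 11 dividing-cell genes fell, with a median difference of -0.57, and 4 of 6 red cell markers fell and 1 rose; the median level of the red cell list was 6.42 at E18.5 (5.98 to 7.185 over arrays), against 9.25 at E14.5 (8.66 to 10.97). From E18.5 to D3, 17 fell and 1 rose, against 10.3% and 9.94% of all genes, with a median of -0.12, while 2 of 7 fibroblast markers rose and 2 of 8 visceral endoderm markers fell. D3 hearts alone of these 2 stages were frozen and pulverised, so handling and birth cannot be told apart in that step. From D3 to adult, 37 fell and 1 rose, against 26.4% and 22.4% of all genes, with a median of -0.33. Housekeeping scaling shifted the median of all genes by 0.25 in the D3 to adult step, and then 16 members fell and 5 rose, with a median of -0.07, and 75.9% of all calls were rises, against 45.8%. The list of 11 dividing-cell genes had a median level of 5.95 in adults, against 10.03 at D3, all 11 falling, while 6 of 7 leukocyte and both fat cell markers rose and 4 of 7 fibroblast markers fell and 2 rose. The part of these genes in the members' decline was not tested in any of the 3 steps.

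In E7.5 embryos 4 members rose and 5 fell relative to ESC, where 24.3% and 25.2% of all genes did, and the median difference was -0.005; with housekeeping scaling 7 rose and 3 fell, and the median was 0.026. All 7 pluripotency markers fell and all 8 visceral endoderm markers rose in that step. In E8.5 heart tubes none rose and 10 fell relative to E7.5 embryos, where 20.4% and 28.1% of all genes did; all 9 heart muscle and 5 of 6 red cell markers rose and 7 of 11 dividing-cell genes fell. E9.5 ventricles had 3 rises and 3 falls relative to E8.5 heart tubes, against 12.8% and 14.1% of all genes; with housekeeping scaling 1 rose and 8 fell, and 31.4% of all calls were rises, against 47.7%. There 4 of 6 red cell markers rose and 7 of 8 visceral endoderm markers fell. In the E12.5 to E9.5 comparison 1 member rose and 17 fell, with a median of -0.09, against 20.1% and 18% of all genes. That decline depended on scaling: with housekeeping scaling 3 members rose and 7 fell, and the members' median was 0.018, while the all-gene median shifted by 0.11 and 71.1% of all calls were rises, against 52.7%. All 7 fibroblast markers (median difference 3.22) and all 7 leukocyte markers (1.5) rose and 8 of 11 dividing-cell genes fell (median over the 11 of -0.37) in that step. The part of these markers in the members' changes up to E12.5 was not tested. At E14.5 1 member rose and 1 fell relative to E12.5, against 7.18% and 6.10% of all genes.

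**Figure D2:**
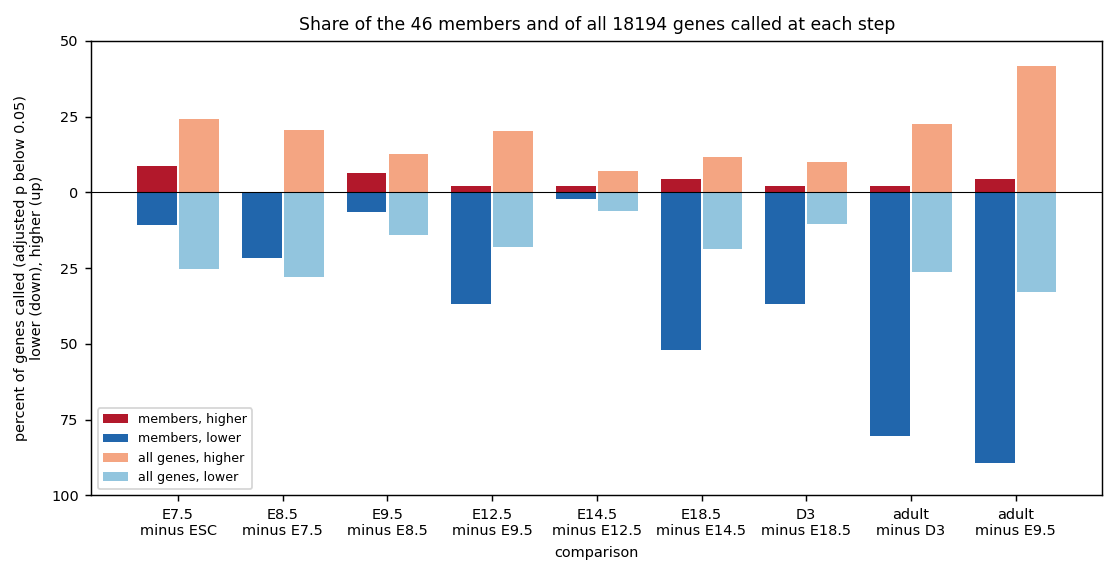
Bars above 0 give the percent of genes that rose and bars below 0 the percent that fell in each comparison (adjusted p below 0.05), dark red and dark blue for the 46 members and pale for all 18194 genes. The members' falls exceed those of all genes in the steps to E12.5, E18.5, D3 and adult and over adult minus E9.5, where 41 of 46 fell.

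Among the 20 large subunit proteins, 18 fell and 1 rose over adult minus E9.5, with a median of -0.81. Rpl14, a core protein of the large subunit, was read on a dim probe set, with a mean of 8.49 over all arrays. The bright members have means above 13. Rpl14 had 5.56, 6.30 and 7.08 (lowest, median, highest of 6 arrays) in adult ventricles and 9.58, 9.79 and 10.33 in E9.5 ventricles. The 2 ranges did not overlap, and Rpl14 fell by 3.48 ± 0.20 (SE; limma, adjusted p = 1.65e-13). It also fell at E12.5 by 0.78, at E18.5 by 0.90, at D3 by 0.58 and in adults by 0.84, each relative to the stage before. The D3 fall was not called in left (adjusted p = 0.0589) or right (0.0825) ventricles alone, with trended robust variances (0.0505) or without E18.5 right ventricle replicate 3 (0.0895). Its adult arrays were widely spread, and the highest in each ventricle was the one on which fat cell markers were high: 7.08 against 5.56 and 6.42 on the left, and 7.01 against 5.92 and 6.19 on the right.

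Rpl12, which sits at the base of the stalk, was read on a dim probe set, with a mean of 6.96. It had 5.07, 5.33 and 5.90 in adult ventricles, near the array medians of 5.35 to 5.47, against 7.56, 8.37 and 8.76 in E9.5 ventricles. It fell by 2.80 ± 0.25 over that span (limma, adjusted p = 4.65e-10). Its falls were stepwise: by 1.17 at E8.5, by 1.89 at E12.5 and by 1.07 at D3, with a difference of -0.155 ± 0.25 between adult and D3 that was not called. Without the right ventricle arrays the D3 change was -0.81 and no longer called (adjusted p = 0.0896).

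Rpl37 showed how 1 array can carry a call. Its E14.5 left ventricles read 10.46, 9.17 and 10.18, its right ventricles 10.53, 10.71 and 10.60, and the 6 E12.5 arrays 10.54 to 10.81. The array at 9.17 is one on which red cell, visceral endoderm and skeletal muscle markers were high, and without it the E14.5 difference of -0.42 became -0.16 (adjusted p = 0.24). Rpl37 also fell at E7.5 by 0.40 and at E12.5 by 0.55, and rose at E9.5 by 0.37. In left ventricles alone neither the E12.5 fall (adjusted p = 0.074) nor the E9.5 rise (0.434) was called, and with housekeeping scaling the E9.5 rise was not (0.0558).

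Rpl41, which encodes the shortest ribosomal protein, fell by 0.42 at E12.5, rose by 0.22 at E14.5 (limma, adjusted p = 0.0493) and fell by 0.67 in adults relative to D3. The E14.5 rise was not called in left (adjusted p = 0.247) or right (0.0819) ventricles alone, with all probe sets averaged (0.182), with the replicate block (0.062) or without E14.5 right ventricle replicate 2 (0.137). The other probe sets of Rpl41 in that average had means of 14.335, 6.73 and 6.10, against 14.48 for the one read here. Rpl27a, read on a probe set with a mean of 9.60, was the large subunit member that went the other way. It had 9.17, 9.41 and 9.98 in adult ventricles and 8.79, 9.22 and 9.55 in E9.5 ventricles, ranges that overlap, and rose by 0.26 ± 0.12 (limma, adjusted p = 0.0495). That call did not hold without adult left ventricle replicate 3 (0.13, adjusted p = 0.354) or in left (0.175) or right (0.114) ventricles alone. Rpl27a fell by 0.32 at E9.5, rose by 0.34 at E18.5 and fell by 0.45 in adults relative to D3. The E9.5 fall was not called with all probe sets averaged (-0.13, adjusted p = 0.354), in left ventricles alone (0.457) or without E9.5 right ventricle replicate 2 (0.111). The other probe set of Rpl27a in that average had a mean of 3.53, against 9.60 for the one read here. The E18.5 rise rested on the same E14.5 array, since without it the difference was 0.19 (adjusted p = 0.151).

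Rpl11, which with Rpl5 and the 5S RNA can bind Mdm2 and so stabilise p53, read 13.02 to 13.19 in adult and 13.96 to 14.16 in E9.5 ventricles, and fell by 0.93 ± 0.06. Rpl38, needed in mice for the translation of a group of Hox messenger RNAs, read 13.85 to 14.02 in adult and at least 14.38 in E9.5 ventricles, and fell by 0.50 ± 0.05; with housekeeping scaling its difference was -0.07 and not called. Rpl22, an RNA-binding protein whose paralog Rpl22l1 can stand in for it, fell by 0.72 ± 0.06 over the same span. Rpl13a, which in human cells can leave the ribosome to silence inflammatory messenger RNAs, fell by 0.66 ± 0.06. Rpl39, a short protein of the exit tunnel, was read on a dim probe set, with a mean of 6.23. Its range was 5.78 to 6.62 in adult and 6.13 to 6.35 in E9.5 ventricles. The difference of -0.04 ± 0.06 was not called. In right ventricles alone Rpl39 fell by 0.28 (limma, adjusted p = 0.00486). Left ventricles read 6.370, 6.616 and 6.178 in adults, against 6.295, 6.135 and 6.140 at E9.5. With housekeeping scaling Rpl39 rose by 0.39. Whether these values follow the gene on so dim a probe set was not tested. Rpl19 fell by 0.16 and Rpl7a and Rpl11 rose by 0.135 and 0.16 in E7.5 embryos relative to ESC. With only these 2 stages in the fit none of the 3 was called. Rpl19 also lost its call with housekeeping scaling (adjusted p = 0.0529) and without E7.5 replicate 3 (0.0655), and Rpl11 with the replicate block (0.0511) and without ESC replicate 3 (0.12, adjusted p = 0.167).

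The stalk recruits the elongation factors that drive each step of translation. Rplp0, its anchor, read 13.96, 13.98 and 14.03 in adult ventricles, against 14.37, 14.39 and 14.41 in E9.5 ventricles. Rplp2, which joins it as a dimer with Rplp1, read 13.97, 14.04 and 14.09 in adult ventricles and 14.54, 14.60 and 14.62 in E9.5 ventricles. Neither range overlapped, and the falls were 0.41 ± 0.05 and 0.55 ± 0.05 (limma, adjusted p = 2.62e-07 and 6.4e-10). The call for Rplp0 was lost with housekeeping scaling, where its difference was 0.024.

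Among the 20 small subunit proteins, 19 fell over adult minus E9.5, none rose, and the median was -0.62. Rps25, a protein that viral and some cellular messenger RNAs need for initiation inside the transcript, was read on a dim probe set (mean 9.58). It had 7.3, 7.46 and 7.65 in adult ventricles and 10.19, 10.66 and 10.74 in E9.5 ventricles. It fell by 3.10 ± 0.10 (limma, adjusted p = 1.07e-18), of which 1.68 came between D3 and adult. Before that Rps25 rose by 0.48 at E7.5 and by 0.45 at E9.5 and fell by 0.58 at E12.5. Rps18, a protein of the small subunit's head, had 13.02, 13.19 and 13.27 in adult ventricles, against 14.24, 14.39 and 14.49 in E9.5 ventricles. It fell by 1.23 ± 0.07 over that span and by 0.74 ± 0.07 between D3 and adult, the largest fall over the span among the bright members.

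Rps6, the small subunit protein phosphorylated by the S6 kinases, had the clearest early rise, on a probe set with a mean of 9.89. It read 10.52, 10.37 and 10.54 in E7.5 embryos, against 9.54, 9.44 and 9.60 in ESC, and rose by 0.95 ± 0.07 (limma, adjusted p = 3.36e-11). It fell by 0.29 at E8.5 (-0.084 and not called with all probe sets averaged, adjusted p = 0.449), by 0.59 at E18.5, by 0.39 at D3 and by 0.31 in adults. The other probe set of Rps6 in that average had a mean of 5.01, against 9.89 for the one read here. Rps19, the gene most often mutated in human Diamond-Blackfan anemia, fell by 0.39 at E18.5, by 0.37 at D3 and by 1.18 ± 0.07 over adult minus E9.5. Rps26 fell by 0.35 at E18.5 and Rpsa, also known as a laminin receptor, by 1.05 ± 0.05 over the whole span.

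Some small subunit members changed little. Rps29 read 14.36, 14.46 and 14.48 in adult ventricles, against 14.65, 14.66 and 14.68 in E9.5 ventricles, a fall of 0.23 ± 0.05. Rps2 fell by 0.24 ± 0.05 over that span and by 0.14 at E9.5, and its difference between adult and D3 was -0.008. With housekeeping scaling both rose instead, Rps29 by 0.205 and Rps2 by 0.195. Rps4x, encoded on the X chromosome, rose by 0.165 at E12.5 and fell by 0.42 ± 0.05 over the whole span (0.011 and not called with housekeeping scaling). With all probe sets averaged neither Rps4x difference was called (0.082 at E12.5, adjusted p = 0.299, and -0.049 over the whole span, adjusted p = 0.457). The other probe set in that average had a mean of 5.03 over the 45 arrays, against 14.29 for the one read here. Rps28 fell by 0.14 at E9.5, and Rps9 fell by 0.16 at E8.5. The E9.5 falls of Rps28 and Rps2 were called neither in 1 ventricle alone (adjusted p = 0.0557 to 0.231) nor without the arrays with high markers of another tissue (0.102 for Rps28 and 0.0553 for Rps2). Rps28 was also not called without E9.5 right ventricle replicate 1 (0.0563), nor Rps9 without E7.5 replicate 1 (0.0722). Rps27 fell by 0.83 ± 0.14 over adult minus E9.5 on a dim probe set. The probe set of Rps16 read 2.91 to 3.85 over all 45 arrays, a level that 4.23 to 9.0% of genes were below, depending on the stage, so its values say little about that gene.

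The 4 paralogs each had a course of their own. Rpl3l read 11.74, 11.91 and 11.97 in adult left ventricles and 11.71, 11.45 and 12.11 in adult right ventricles. In E9.5 left ventricles it read 4.20, 4.3 and 4.39, and in E9.5 right ventricles 4.11, 3.79 and 4.21. No earlier array reached the adult range, and up to E14.5 Rpl3l lay at a level that 11.7 to 19.4% of genes were below, where signal and background cannot be told apart, so no fold is given. The stage means were 4.10 ± 0.10 at E14.5, 5.98 ± 0.35 at E18.5, 8.22 ± 0.10 at D3 and 11.82 ± 0.20 in adults (SD, n = 3). Rpl3l rose at E18.5 relative to E14.5 (limma, adjusted p = 2.69e-10) and over adult minus E9.5 (adjusted p = 2.46e-23), in both cases against a level near background. It rose by 2.24 ± 0.13 at D3 and by 3.59 ± 0.13 in adults, each relative to the stage before. The skeletal muscle marker list, the other tissue where Rpl3l is known, had a median of 5.89 in adult and 6.0 in E9.5 ventricles, and 0 of its 6 genes rose and 1 fell over that span (5 rose with housekeeping scaling).

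Rpl39l read 4.67, 5.36 and 5.62 in E7.5 embryos, against 10.13, 10.24 and 10.32 in ESC. It fell by 5.02 ± 0.17 (limma, adjusted p = 8.05e-17), to a level that 32.7% of genes were below, so the size is uncertain. It fell again in E8.5 heart tubes (adjusted p = 4.9e-07), to a level that 14.3% of genes were below, so no size is given. From E8.5 on its 39 arrays lay between 3.49 and 5.13. The highest of them was the E14.5 left ventricle array that was also lowest for Rpl37.

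Rps4l, named as a relative of Rps4x, read 11.75, 12.46 and 12.01 in E7.5 embryos, against 13.19, 13.32 and 13.26 in ESC, and fell by 1.18 ± 0.19. It fell by 0.68 ± 0.19 at E18.5. In adult ventricles it read 7.88, 8.70 and 9.27, against 10.89, 11.01 and 11.19 in D3 ventricles, and fell by 2.39 ± 0.19 (limma, adjusted p = 2.45e-10). The adult arrays were spread widely but none reached the D3 range. Rps4x fell by 0.34 in the same step.

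Rps27l, a p53-responsive paralog of Rps27, moved back and forth. It fell by 0.25 at E7.5 and by 0.39 at E8.5, rose by 0.31 at E9.5 and fell by 0.71 ± 0.09 at E12.5 (limma, adjusted p = 1.95e-06). The E7.5 fall was not called with housekeeping scaling (adjusted p = 0.0534) or without E7.5 replicate 3 (-0.18, adjusted p = 0.162), nor the E9.5 rise with that scaling (0.0536) or in left ventricles alone (0.32). Its E9.5 arrays read 13.28, 12.79 and 12.85 in left and 13.38, 12.94 and 13.37 in right ventricles, with 3 arrays well above the other 3, and without right ventricle replicate 3 it was 0.23 (adjusted p = 0.104). Rps27l fell by 0.40 in adults relative to D3.

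**Figure D3:**
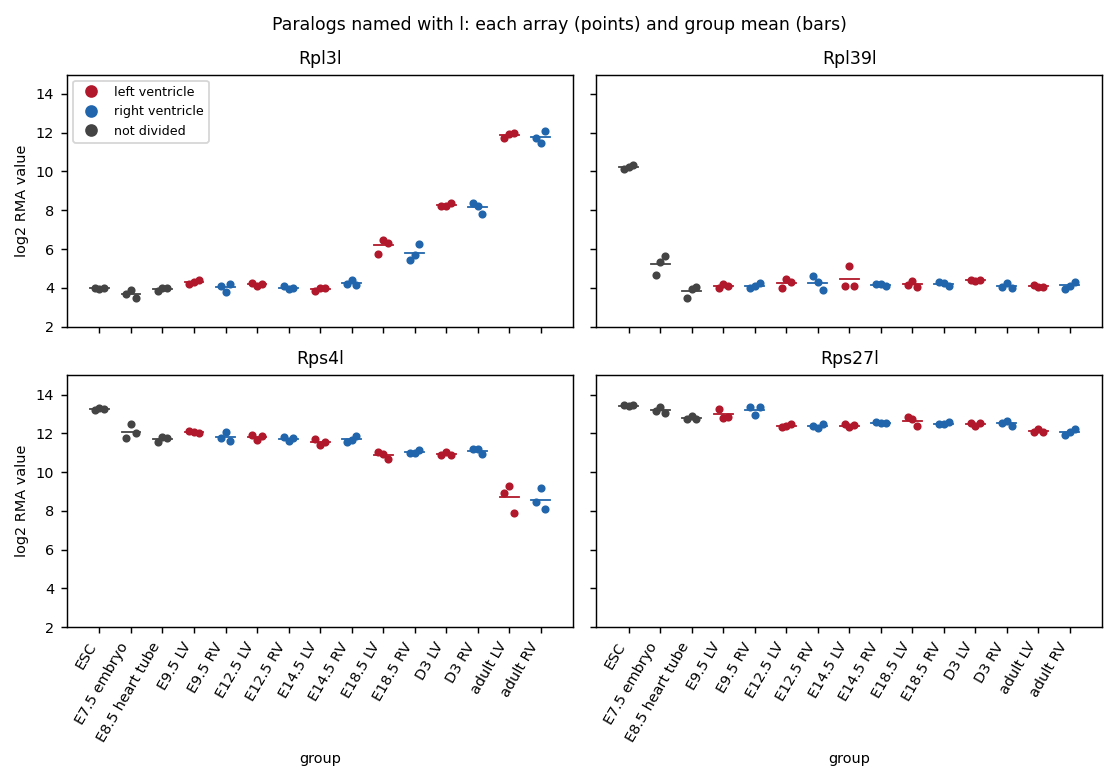
Points are the log2 RMA values of single arrays and bars the group means, for Rpl3l, Rpl39l, Rps4l and Rps27l from ESC to adult, with left ventricles red, right ventricles blue and undivided samples grey. Rpl3l is higher at each step from E14.5 to adult, Rpl39l is high in the 3 ESC arrays alone, and Rps4l drops at E7.5 and in adults.

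The size of a fall also differed between probe sets. The 46 members have 100 probe sets of their own, and 23 members have more than 1. Over adult minus E9.5 the 29 probe sets with a mean above 14 had a median difference of -0.57, and 28 of them fell. The 28 with a mean of 13 to 14 had -0.91, the 10 of 12 to 13 had -0.99, the 7 of 9 to 12 had -1.47 and the 9 of 6 to 9 had -1.77. The 17 probe sets below 6 had 0.005. Rpl14, Rps25 and Rpl12, the core proteins that fell most, were read on probe sets with means of 6 to 12, as were Rpl27a and Rps6. Whether their courses are those of the genes or of the probe sets was not tested. Rpl13a shows the spread within a gene: its 4 probe sets, from brightest to dimmest, fell by 0.66, 0.95, 2.08 and 3.17. Of 19 members with several probe sets above 6, the dimmest fell by more than the brightest in 13. In those 13 members the size given here is thus smaller than the one the dimmest probe set gave, and whether signal near the top of the scale compressed them was not tested. The 110 probe sets that list a ribosomal protein symbol together with other genes had a median of -0.695, with 104 that fell and 1 that rose.

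**Figure D4:**
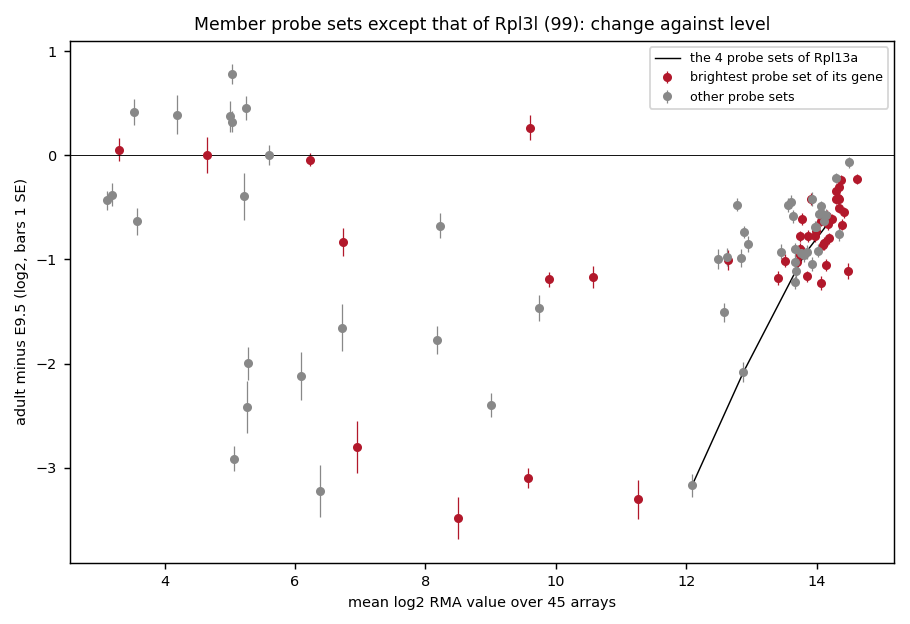
Each point is a probe set of a member, with its mean log2 RMA value over 45 arrays on the x axis and its adult minus E9.5 difference with 1 SE on the y axis; the probe set of Rpl3l is left out. The 29 probe sets above 14 lie between -1.23 and -0.07, and the line through the 4 probe sets of Rpl13a runs from -0.66 at the brightest to -3.17 at the dimmest.

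The sequence around the start of these genes was set beside these results. RefSeq windows (GRCm38.p6) of 250 bases before and 50 from each annotated start were available for 40 members, in 48 windows. A run of at least 6 pyrimidines (C or T, on the gene's strand) that overlaps the 5 bases either side of the start was found in 45.8% of the member windows and 20.9% of the 21263 windows of protein-coding genes. The letters CCGGAAG, the core of ETS factor sites such as those of Gabpa, were found on either strand in 41.7% of member and 11.6% of all windows. CACGTG, the E-box that Myc binds, was found in 10.4% and 7.84%. TATAAA, searched on the gene's strand from 40 to 16 bases before the start, was found in no member window and in 2.53% of all windows. Only these exact letters were searched, so variants such as the tatataag in the Rps18 stretch below were not counted. A match is a description of the letters and not evidence of binding.

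The stretches below hold 60 bases before the annotated start and 30 from it, with a pyrimidine run in capitals where it overlaps the 5 bases either side of the start. They are shown for Rpl13a, whose 4 probe sets are compared above, for the members with a window that fell most (Rpl14, Rps25, Rpl12 and Rps18; Rps4l, which fell by 3.30, had none), and for the 2 paralogs with stage-restricted signal. For Rps25 and Rpl3l no run overlapped those bases, though Rps25 has one of 14 pyrimidines that ends 8 bases short of the start, left in lower case. For Rpl3l a second stretch, beginning 143 bases before another annotated start, holds a match to the MEF2 motif in capitals.
Rpl13a, chr7:45128716-45128805, minus strand: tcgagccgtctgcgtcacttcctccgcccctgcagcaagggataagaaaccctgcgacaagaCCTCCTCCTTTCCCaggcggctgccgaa
Rpl14, chr9:120571457-120571546, plus strand: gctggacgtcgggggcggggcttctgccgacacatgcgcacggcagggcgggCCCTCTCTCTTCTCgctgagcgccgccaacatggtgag
Rps18, chr17:33955636-33955725, minus strand: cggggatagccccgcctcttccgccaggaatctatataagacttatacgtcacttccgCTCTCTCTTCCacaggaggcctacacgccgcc
Rpl12, chr2:32961652-32961741, plus strand: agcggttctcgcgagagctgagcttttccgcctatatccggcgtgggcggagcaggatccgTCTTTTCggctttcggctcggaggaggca
Rps25, chr9:44407654-44407743, plus strand: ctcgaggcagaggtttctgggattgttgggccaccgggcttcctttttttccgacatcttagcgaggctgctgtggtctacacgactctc
Rpl39l, chr16:10170168-10170257, plus strand: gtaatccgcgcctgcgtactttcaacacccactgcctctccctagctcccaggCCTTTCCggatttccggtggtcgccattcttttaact
Rpl3l, chr17:24727766-24727855, plus strand: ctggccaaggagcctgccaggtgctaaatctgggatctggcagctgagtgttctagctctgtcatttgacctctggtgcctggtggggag
Rpl3l, other start, chr17:24732542-24732591, plus strand: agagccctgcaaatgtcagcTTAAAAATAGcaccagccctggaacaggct

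The run at the start was found in at least 1 window for 20 of the 35 members with a window that fell over adult minus E9.5, for 1 of the 2 that rose (Rpl27a, and not Rpl3l) and for 1 of the 3 that were not called (Rpl39l). The MEF2 motif was found in 1 of 48 member windows, that of Rpl3l, and in 2.74% of all windows.

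Most other genes of the translation machinery fell over adult minus E9.5 too, where 32.9% of all genes fell and 41.6% rose. Of the 59 measured ribosome assembly factors all 59 fell, with a median of -1.40. Nop58, Nop56 and Nhp2, parts of the particles that methylate and pseudouridylate ribosomal RNA, had differences of -3.27, -2.82 and -2.66. Of 16 genes of RNA polymerase I and its factors, 14 fell and 1 rose, led by Taf1d (-3.91), Taf1b (-1.97) and Polr1c (-1.57). Taf1d averaged 5.05 in adult ventricles, below the array medians, so the size of its fall is uncertain. Of 31 initiation factors 27 fell and 2 rose, with a median of -0.78, and the largest changes were those of Eif4a1, Pabpc1 and Eif3d, with differences of -2.1, -1.61 and -1.60. A further list held 19 genes outside the members with a pyrimidine-led messenger RNA, most of which are also in the other translation lists given here. Of these 17 fell and none rose, with Npm1, Nap1l1 and Hnrnpa1 first at -2.09, -2.06 and -1.81. With housekeeping scaling 52 assembly factors fell and 2 rose, 8 genes of RNA polymerase I fell and 1 rose, 18 initiation factors fell and 6 rose, and 13 of the 19 pyrimidine-led genes fell and 4 rose.

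The counts of assembly factors and of members by step are set side by side here. At E8.5, relative to E7.5, 55 of 59 assembly factors fell with a median of -0.59, beside 10 of 46 members with a median of -0.09. The median over all genes in that step was -0.056, so the members lay near it. At E12.5, relative to E9.5, 56 assembly factors fell with a median of -0.72, beside 17 members with a median of -0.09 (with housekeeping scaling 56 and 7 fell, with medians of -0.61 and 0.018). At E18.5, relative to E14.5, 33 assembly factors fell with a median of -0.23, beside 24 members with a median of -0.17, and at D3, relative to E18.5, 25 fell with a median of -0.20, beside 17 members with a median of -0.12. In adults, relative to D3, 26 assembly factors fell and 12 rose with a median of -0.14, beside 37 members that fell with a median of -0.33. With housekeeping scaling 19 assembly factors fell and 26 rose in that step with a median of 0.12, beside 16 members that fell and 5 that rose with a median of -0.07. The steps share their stages, and the difference between the lists was not tested.

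The 8 elongation factors held the widest contrast. Eef1a2, the muscle and nerve form of the factor that brings aminoacyl tRNA to the ribosome, read 12.98, 13.12 and 13.37 in adult ventricles and 8.74, 9.18 and 9.34 in E9.5 ventricles, and rose by 4.07 ± 0.14 (limma, adjusted p = 1.06e-17). Eef1a1, the general form, read 13.47, 13.59 and 14.04 in adult ventricles, against 14.60, 14.66 and 14.70 in E9.5 ventricles, and fell by 1.01 ± 0.06. Almost all of that fall, 0.95, came between D3 and adult. Eif5a2 fell by 3.11 and Eef1e1 by 1.55, and 6 of the 8 fell and 1 rose in all. Eif5a2 averaged 5.14 in adult ventricles, below the array medians, so the size of its fall is uncertain. The paralogs outside the naming rule also fell: Rpl22l1 by 1.48, Rpl7l1 by 1.26 and Fau, which encodes a small subunit protein fused to a ubiquitin-like part, by 0.85.

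Among 13 regulators of ribosome production, 7 fell and 2 rose (5 and 5 with housekeeping scaling). Mycn, the Myc family member of the embryonic heart, had 6.16, 7.07 and 7.60 in adult ventricles, against 10.66, 10.89 and 10.94 in E9.5 ventricles, and fell by 3.92 ± 0.15. Myc had 5.45, 6.27 and 6.42 in adult ventricles, against 7.83, 8.06 and 8.25 in E9.5 ventricles, and fell by 1.91 ± 0.22, and Eif4ebp2 fell by 1.66. Of 6 measured genes of the Rps6 kinase family 4 fell and 1 rose. Rps6ka6 averaged 4.48 in adult and 10.33 in E9.5 ventricles and fell, Rps6kb2 fell by 1.13, and Rps6kl1, at 5.32 in adult and 4.43 in E9.5 ventricles, rose. All 11 dividing-cell genes fell, among them Bub1 (3.86 in adult and 10.9 in E9.5 ventricles), Birc5 (4.75 and 11.4) and Top2a (5.94 and 11.7). Of the 16 housekeeping genes used for scaling 11 fell and 3 rose, with Snrpd3 (-1.74), Ywhaz (-1.38) and Reep5 (1.3) first.

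No member was called for the mean left minus right difference over the 6 ventricle stages by limma, where 1.26% of all genes were higher and 1.72% lower on the left, and 2 members had an unadjusted p below 0.05. The member differences ran from -0.16 to 0.13. The left minus right difference depended on stage for 1 member, Rps18 (F-test, adjusted p = 0.0299), where 5.85% of all genes were called, and 11 members had an unadjusted p below 0.05.

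At E18.5 left ventricles had higher signal than right ventricles for 9 members and lower for none, where 2.84% of all genes were higher and 2.12% lower on the left (with housekeeping scaling 45% of calls were higher on the left, against 57.3%). They were Rps18, Rpl11, Rps19, Rps14, Rps7, Rps26, Rps15, Rpl19 and Rps9, with differences of 0.22 to 0.41, largest for Rps18, Rpl11 and Rps19. The comparison at this single stage was added after seeing the data, so all 9 were named after their values were seen. Rps18 read 14.40, 14.45 and 14.12 in left and 13.88, 13.88 and 13.98 in right ventricles, which do not overlap, and differed by 0.41 ± 0.08 (limma, adjusted p = 0.00282). With all its probe sets averaged that difference was 0.17 (adjusted p = 0.0935). That average takes in dim probe sets with means of 5.605, 3.19 and 3.12 over the 45 arrays, beside brighter ones of 13.86 to 14.07. Rpl11 read 13.97, 13.93 and 13.68 in left and 13.46, 13.56 and 13.57 in right ventricles, and differed by 0.33 ± 0.08. Rps19 read 13.57, 13.51 and 13.08 in left and 13.05, 13.08 and 13.17 in right ventricles, which overlap. Rps14 differed by 0.26 ± 0.07. In Rps18, Rpl11 and Rps19 left replicate 3 lay near the right ventricles and left replicates 1 and 2 apart from them. Left replicate 2 is the E18.5 array with high visceral endoderm markers (8.67, against 6.33 in the other left replicates); without it none of the 46 members was called, without left replicate 1 there was 1, without left replicate 3 there were 17, and without right replicate 1, 2 or 3 there were 2, 3 and 7. With housekeeping scaling 4 were called.

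The steps around birth were also fitted in each ventricle alone. In left ventricles 11 members were called lower at E18.5 than at E14.5, where 3372 of 18194 genes were, and 18 at D3 relative to E18.5, where 1591 were. In right ventricles 27 were called lower at E18.5, where 2580 of all genes were, and 4 at D3, where 1403 were. Leaving out the 6 arrays with high markers of another tissue gave 30 falls at E18.5 and 11 at D3. The difference between the ventricles in these steps was tested only as the dependence of left minus right on stage, which called Rps18. At E14.5 Rpl37 was lower in left ventricles (10.46, 9.17 and 10.18) than in right ventricles (10.53, 10.71 and 10.60), by 0.67 ± 0.17 (limma, adjusted p = 0.0126), where 4.24% of all genes were higher and 4.27% lower on the left. Without the marked arrays no member was called at E14.5.

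**Figure D5:**
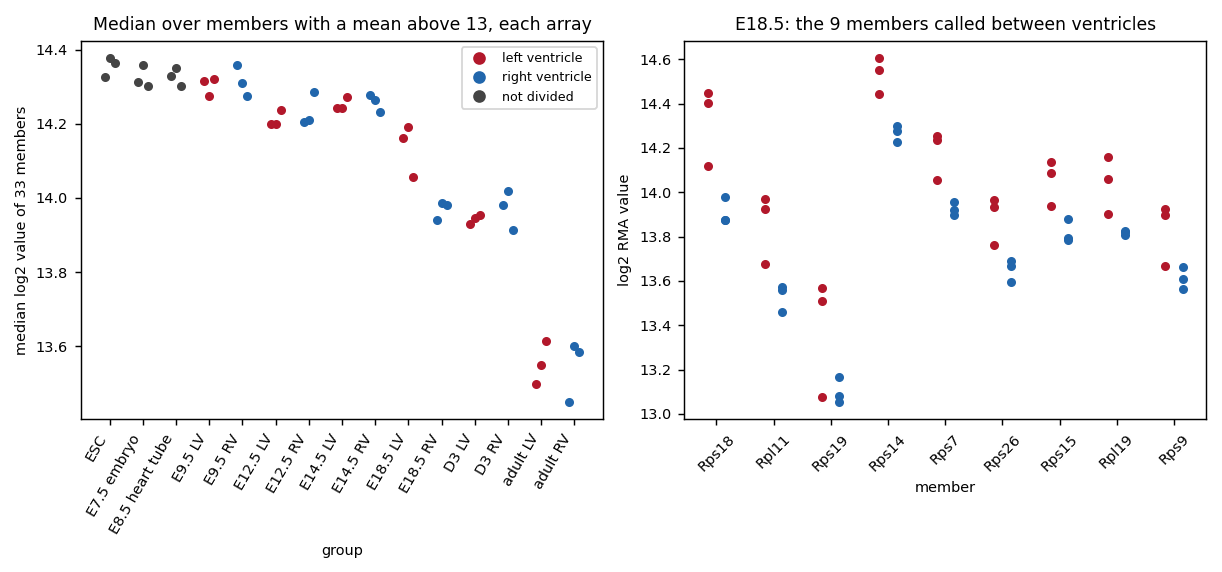
The left panel gives the median log2 value of the 33 bright members on each array by group, and the right panel the 3 left (red) and 3 right (blue) E18.5 ventricle arrays for the 9 members called there. At E18.5 the left ventricle medians are 14.16, 14.19 and 14.06 and the right ventricle medians 13.94, 13.99 and 13.98, and the adult arrays are the lowest in both ventricles.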

How the data were processed

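Total RNA was labelled with biotin and hybridised to Affymetrix arrays, and the deposited series table holds 1 column of log2 values for each of the 45 arrays. The authors made these log2 values with RMA, per the submitters' processing notes; its settings are not given in the sources used here. Of 45101 probe sets, 34958 list 1 gene symbol, 932 several and 9211 none, and 34754 of the first kind matched RefSeq (GRCm38.p6) names. Each gene was represented by its probe set of highest average signal, giving 18194 genes. Members and gene lists were chosen with earlier results of these data known. In each list the 3 called genes with the largest adult minus E9.5 change were named. Among members the 5 largest called rises and falls at each step were named, with a fixed set of members whatever their values. For the mean left minus right difference the rule was to name the 3 largest called in each direction, and no member was called. Rps4l, which meets the naming rule, is described with the paralogs.

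Stage steps were tested with limma 3.58.1 in R 4.3.3 on 27 values, left and right ventricle arrays of the same stage and number being averaged (18 residual degrees of freedom). Left and right ventricles were compared on 45 arrays in a fit of the 15 groups, which leaves 30 residual degrees of freedom. P-values were adjusted over all genes by the Benjamini-Hochberg method, at 0.05. The labels describe biological triplicates. The number of arrays limits the precision. Left and right ventricle arrays of the same number deviated together (every correlation above 0.1) at E12.5 alone, and no step passed that check. The main left minus right fit paired no arrays by number at any stage, E12.5 included. Pairing by number was used there only in the replicate block. The stage steps averaged same-numbered left and right arrays at every ventricle stage, whether or not they deviated together. Alternatives were trended robust variances, only the stages compared, all probe sets of a gene averaged, probe sets without _s, _x or _f suffix, housekeeping scaling, a filter on low values (11181 genes left), 1 ventricle alone, each array left out, a replicate block and a threshold of 0.01. Leaving out the 6 arrays with high markers of another tissue, shared probe sets, single probe sets and single-stage left minus right differences were added after seeing the data. Motifs were searched in the RefSeq promoter windows. The procedure was tested on simulated data.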

Additional observations from a re-analysis of the deposited data

Results flagged for a closer look

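The left minus right difference of Rps18 depended on stage, with an adjusted p of 0.0299 by the F-test over the 6 ventricle stages. It was 0.41 ± 0.08 (SE) at E18.5 and lay between -0.10 and -0.009 at the other 5 stages, where it was not called. The call was lost without the 6 arrays with high markers of another tissue, when no member was called, and no member was called with the replicate block. Groups of 3 arrays are too small for a test of single outlying arrays.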

How the results depend on the processing

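Over adult minus E9.5, 41 members fell without any single array, and under the other alternatives 32 (housekeeping scaling) to 42 (right ventricle only) fell. The counts of falls in the other steps moved as follows. With housekeeping scaling they were 3 at E7.5, 8 at E9.5, 7 at E12.5, 15 at E18.5 and 16 in adults relative to D3. With only the stages compared in the fit they were 3 at E7.5, 4 at E8.5, 0 at E9.5 and 0 at E14.5. At a threshold of 0.01 they were 3, 5, 0, 9 and 0 at E7.5, E8.5, E9.5, E12.5 and E14.5, and 11 at D3. In left ventricles alone they were 0 at E9.5, 6 at E12.5 and 11 at E18.5, and in right ventricles alone 1 at E9.5, 0 at E14.5 and 4 at D3. With all probe sets of a gene averaged they were 9 at E7.5 and 2 at E14.5. Without suffixed probe sets there was 1 and with trended robust variances there were 5 at E9.5. Without the arrays with high markers there were 1 at E9.5, 0 at E14.5 and 11 at D3. Leaving out single arrays gave 3 to 6 falls at E7.5, 6 to 10 at E8.5, 0 to 3 at E9.5, 12 to 17 at E12.5, 0 to 1 at E14.5, 16 to 29 at E18.5, 10 to 19 at D3 and 36 to 37 in adults relative to D3, 44 to 45 members called over all stages, 0 to 0 for the mean left minus right difference and 0 to 7 for its dependence on stage. That last count was 3 with trended robust variances, 2 with all probe sets averaged, 2 with the filter on low values, and 0 at the threshold of 0.01 and without the marked arrays. With replicate number as a block 14 members fell at E12.5, 22 at E18.5, 15 at D3, 37 in adults relative to D3 and 41 over adult minus E9.5, 0 depended on stage between ventricles and 2 were called between ventricles at E18.5; same-numbered left and right arrays deviated together at E12.5, and no stage step passed that check. With housekeeping scaling 9 members turned positive over adult minus E9.5, among them Rpl39 (0.39), Rps4x (0.011) and Rplp0 (0.024). Rps9 reversed between ventricles at E18.5 without suffixed probe sets (-0.055), where it was read on a probe set with a mean of 5.26. The causes were not tested. Dim probe sets and values near the top of the scale limit what the sizes mean. The beta-actin control signal at the 3' end minus that at the 5' end differed between stages. Its median was 0.35 in ESC, 0.61 at E9.5, 0.81 at E14.5 and 0.67 in adults (0.455 to 0.960 over adult arrays). For the Gapdh control the medians were 0.08, -0.03, 0.035 and -0.05. The part of RNA quality in the members' changes was not tested.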
